A study of Homo sapiens with 3 samples.

Results

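The genes described are 9 members of the humanin-like family, MTRNR2L1, MTRNR2L2, MTRNR2L3 and MTRNR2L5 to MTRNR2L10, with the ChIP-seq summits of HA-tagged TFE3 near them. HA-TFE3 is an epitope-tagged form of TFE3, a transcription factor of the MiT/TFE family known for binding E-box sequences at lysosomal and autophagy genes. Its binding was read out by ChIP-seq, the sequencing of DNA recovered with an antibody to the tag, in HK-2, an established human proximal tubule cell line carrying an HA-TFE3 gene under doxycycline control. Per the labels, the protocol uses 24 h of culture with or without 0.2 µg/ml doxycycline, without saying which libraries came from treated cells, so no induction effect is described. The group used holds 2 replicate anti-HA ChIP libraries, and 1 input DNA library of the same cells was not analysed here. No summit was checked against the input, so a listed summit does not by itself show binding. Nothing in the labels says that both ChIP libraries came from separate cultures, so their spread may be technical.

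The authors listed single-base summits for each library, each with its own peak name and a score (scale not given in the sources used here). Replicate 1 held 62322 summits with a median score of 8.55, and replicate 2 held 72692 with a median of 8.38. A gene's summits were those within 5 kb of its hg19 start, which gave 12 summits of replicate 1 and 10 of replicate 2. The strand of the genes was not used, so a start may be either end of a gene as it is transcribed. Distances are positive towards higher coordinates of the chromosome, and before the start means towards lower ones. The genes were chosen by the scores of these same lists, in which summits at some of them stand near the top. Scores and ranks are therefore a description, with no test.

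Humanin is a small secreted peptide whose reading frame lies within MT-RNR2, the gene for the large ribosomal RNA of the mitochondrion. It is known for protecting cells against apoptosis, in part by binding the pro-apoptotic protein BAX. The MTRNR2L genes resemble MT-RNR2 and lie in the nuclear genome, in stretches derived from mitochondrial DNA, which are called nuclear mitochondrial copies. Short reads from such a copy and from the mitochondrial genome can be nearly or fully identical, so where a read is placed depends on the aligner. The authors' treatment of reads that match several places was not stated in the labels, and no stretch was checked against a genome sequence here. RefSeq on GRCh38.p14 lists 13 loci of this name, and all 9 genes described are classed there as pseudogenes. The other 4, MTRNR2L4, MTRNR2L11, MTRNR2L12 and MTRNR2L13, were not analysed here.

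HA-TFE3 summits were listed near most of these genes, but at very different heights. Of the 9 genes, 6 had a summit in both lists (MTRNR2L1, MTRNR2L2, MTRNR2L6, MTRNR2L8, MTRNR2L9 and MTRNR2L10), 1 had a summit in replicate 1 alone (MTRNR2L3), and 2 had none (MTRNR2L5 and MTRNR2L7). Of all fixed 10 kb windows of chromosomes 1 to 22 and X, 12.7% held a summit in both lists. Because the genes were chosen with these summits in view, nothing is read from that contrast. The leading summit of a gene, its highest-scoring one in a list, had a median percentile over the 6 genes of 99.05 in replicate 1 and 98.71 in replicate 2, and of 98.88 ± 0.235 with each gene averaged over both (SD between libraries, n = 2).

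The highest scores belonged to MTRNR2L2 on chromosome 5, whose start is base 79945819 in band 5q14.1. Its leading summit scored 137.1 at base 79947342 in replicate 1 and 134.0 at base 79947344 in replicate 2, a mean of 135.6 ± 2.15 (SD, n = 2). It ranked 5 in each list. A second summit lay closer to the start, with scores of 36.4 at 125 bp in replicate 1 and 37.1 at 133 bp in replicate 2. Both lists thus gave the same pair of summits, with the higher one farther from the start.

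MTRNR2L8 on chromosome 11, with its start at base 10529434 in band 11p15.4, came next. It lies between the protein-coding genes AMPD3, which encodes an AMP deaminase, and RNF141. The leading summit scored 125.5 at base 10531189 in replicate 1 and 117.4 at base 10531180 in replicate 2, with ranks of 7 and 6 (mean 121.4 ± 5.76, SD, n = 2). Replicate 1 also had a summit 39 bp from the start that scored 63.7 and ranked 122, and a low one at 2310 bp that scored 6.37. Replicate 2 listed neither. Its nearest summit to the one at 39 bp was 1707 bp away. Of the 1000 highest-scoring nuclear summits of replicate 1 on chromosomes 1 to 22 and X, 1 had no summit of replicate 2 within 500 bp, and it was this one. In the other direction, 0 of the 1000 highest of replicate 2 lacked a summit of replicate 1 within 500 bp. At the narrower limit of 100 bp, 62 of the 1000 highest summits lacked one in each direction. The summit at 39 bp was singled out after its value was seen.

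MTRNR2L9 on chromosome 6 has its start at base 62284008 in 6q11.1, a band that holds the centromere. Each list had a single summit there, at 72 bp with a score of 76.4 in replicate 1 and at 76 bp with 88.4 in replicate 2 (mean 82.4 ± 8.50, SD, n = 2). It ranked 32 and 18. This was the only one of the 3 highest-scoring genes whose leading summit lay close to the start.

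MTRNR2L1 on chromosome 17, with its start at base 22022437 in band 17p11.2, had a leading summit on the lower-coordinate side. It scored 42.7 at base 22020709 in replicate 1 and 41.9 at base 22020722 in replicate 2, 1728 and 1715 bp before the start (mean 42.3 ± 0.573, SD, n = 2). Its ranks were 1159 and 1855, far below those of MTRNR2L2, MTRNR2L8 and MTRNR2L9 but within the top percentiles, at 98.14 and 97.45. A summit on the other side, at 342 bp in replicate 1 and 322 bp in replicate 2, scored 8.24 and 7.32, below the median of each list.

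MTRNR2L10 and MTRNR2L6 had summits of ordinary height. MTRNR2L10 on chromosome X, with its start at base 55207824 in band Xp11.21, had summits at 290 and 287 bp and at 2137 bp in both lists. The farther one scored 9.91 in replicate 1 and 14.11 in replicate 2, and the closer one 8.83 and 12.94. MTRNR2L6 on chromosome 7 has its start at base 142374131 in band 7q34. The nearest genes on each side that RefSeq classes as protein-coding are PRSS58 and PRSS1, the gene of cationic trypsinogen. Genes of other classes between them were not considered. Its leading summit lay at 1245 bp and scored 8.55 in replicate 1 and 10.82 in replicate 2. Replicate 2 alone had a second one, 138 bp before the start, with a score of 5.39. The leading summits of both genes lay between percentiles 51.02 and 71.53, so they scored near or moderately above the middle of their lists.

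For the remaining genes little or nothing was listed. MTRNR2L3 on chromosome 20, with its start at base 55933496 in 20q13.31, had 1 summit at 3263 bp in replicate 1, with a score of 4.54 at percentile 15.86. The next summits outside its 5 kb limit lay 7193 and 7219 bp before the start and scored 9.7 in replicate 1 and 15.5 in replicate 2. MTRNR2L5, with its start at base 57358750 of chromosome 10 in 10q21.1, had its nearest summits 29.7 kb away in replicate 1 and 29.6 kb away in replicate 2. MTRNR2L7, at base 37890366 of chromosome 10 in 10p11.21, had its nearest 134 kb away in replicate 1 and 18.6 kb away in replicate 2. Whether reads can be mapped to these places was not measured, so the lack of a summit does not show a lack of binding.

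**Figure D1:**
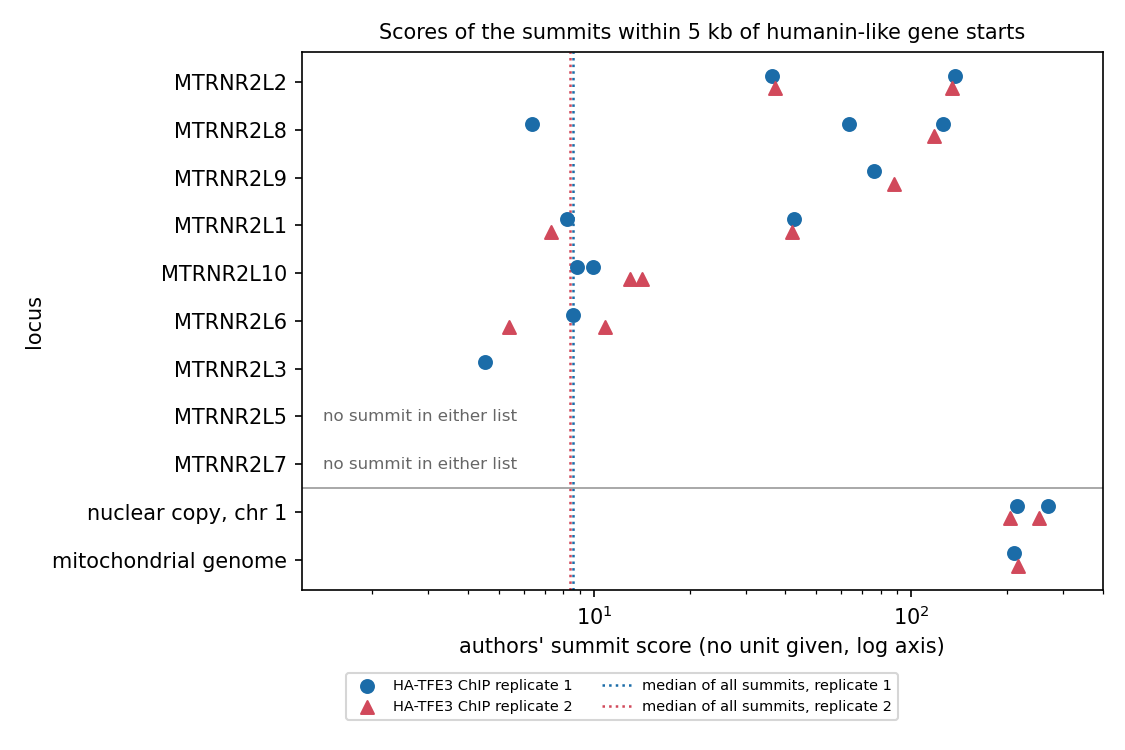
Score of each summit (log axis) within 5 kb of the 9 gene starts, with the chromosome 1 copy and the mitochondrial genome below the line. Circles are replicate 1, triangles replicate 2, and dotted lines the medians of 8.55 and 8.38. The leading summits of MTRNR2L2, MTRNR2L8 and MTRNR2L9 score above 76 in both lists, while those of MTRNR2L10 and MTRNR2L6 lie near or moderately above the medians.

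The farthest summit inside the 5 kb limit was that of MTRNR2L3 at 3263 bp. Just outside it was a summit near MTRNR2L2, 5075 bp from the start with a score of 9.9 in replicate 1 and 5099 bp with 27.1 in replicate 2.

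The ranks of the humanin-like genes were set beside those of the mitochondrial genome and of a long nuclear mitochondrial copy on chromosome 1 in band 1p36.33, whose summits lay at bases 566206 and 567398 in replicate 1. MTRNR2L2 ranked 5 and 5 and MTRNR2L8 ranked 7 and 6 in replicates 1 and 2, against ranks of 1 and 1 and of 2 and 3 for both summits of the chromosome 1 copy. The single mitochondrial summit ranked 3 in replicate 1 and 2 in replicate 2. It lay at base 9908 in replicate 1 and at base 10038 in replicate 2, of 16571 bases. Neither this summit nor the chromosome 1 copy was placed relative to MT-RNR2. The comparison is therefore one of ranks and scores, and not with the sequence that the humanin-like genes resemble. Scores at MTRNR2L2, at most 137.1, stayed below the 203.7 to 270.2 of the chromosome 1 copy and the 211.0 and 217.1 of the mitochondrial genome. So the copy on chromosome 1 and the mitochondrial genome took the first 3 ranks in each list, and no humanin-like gene reached them. Whether reads of mitochondrial origin contributed to the summits of the humanin-like genes was not tested.

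Of the 10 highest summits in each list, 2 belonged to humanin-like genes (MTRNR2L2 and MTRNR2L8) and 3 to the copy and the mitochondrial genome. MTRNR2L9 joined among the 100 highest, which made 3 summits in each list. Among the 1000 highest there were 4 in replicate 1 and 3 in replicate 2, from the same 3 genes. Of the 9 genes, 3 thus had a summit among the 1000 highest of both lists, and 0.188% of fixed 10 kb windows did. The choice of the genes rests on these ranks, so that share is given as a background only. The rest of the family's summits did not fill the range evenly. In replicate 1 their ranks jumped from 2091 to 26275, and in replicate 2 from 2779 to 20700.

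**Figure D2:**
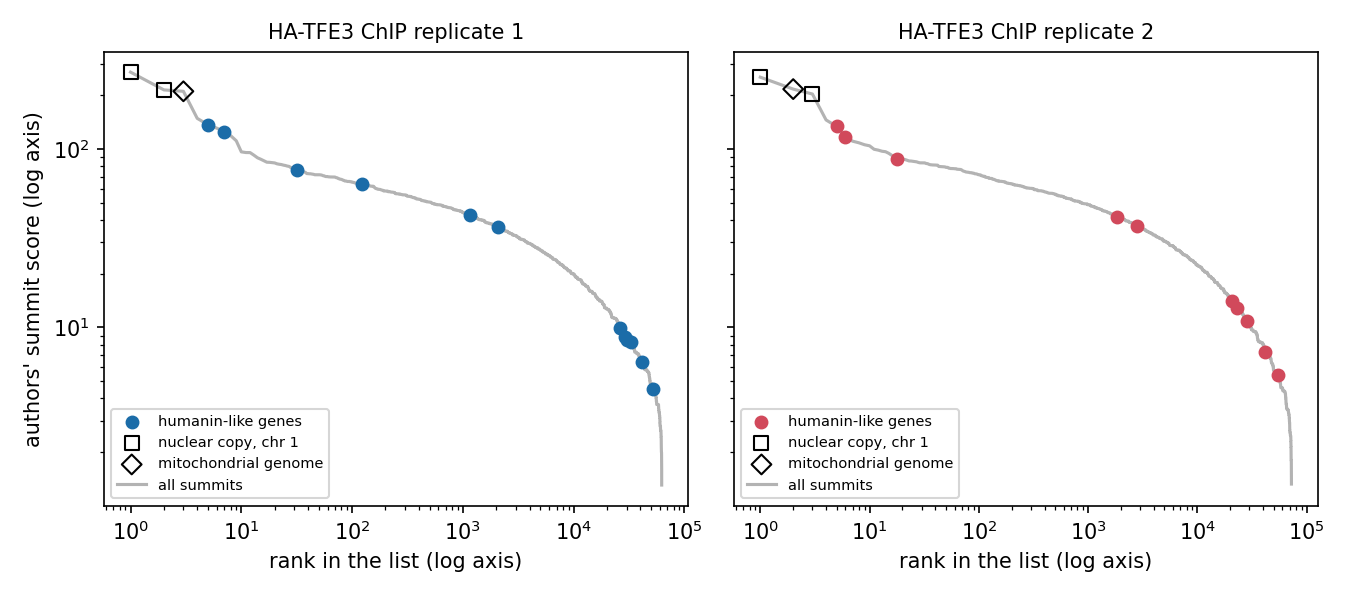
Summit score against rank in its own list, both on log axes, for replicate 1 (left) and replicate 2 (right). Filled points are summits of the 9 humanin-like genes, open squares the chromosome 1 copy, open diamonds the mitochondrial genome, and the grey line all summits. The copy and the mitochondrial genome hold ranks 1 to 3, MTRNR2L2 ranks 5 in both, and a gap separates the strong summits from those beyond rank 20700.

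All but 1 of the summits lay either close to the start or 1 to 2.5 kb from it. Within 350 bp lay 5 summits of replicate 1 and 5 of replicate 2, together from all 6 genes that had a summit in both lists. Between 1 and 2.5 kb lay 6 summits of replicate 1 and 5 of replicate 2, from 5 of these genes, all but MTRNR2L9. The 1 summit beyond 2.5 kb was that of MTRNR2L3 at 3263 bp in replicate 1, and none lay between 342 and 1245 bp. These limits were set after the distances were seen. Because a start may be either end of a gene, the distances do not place summits relative to promoters. In the 5 genes with several summits in a list, 8 gene-and-library combinations in all, the summit nearest to the start was not the highest in any of the 8.

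The 2 highest summits of a gene could be measured against each other at 5 genes, at 3 of them in both libraries. At MTRNR2L1 the spacing was 2070 bp in replicate 1, with 2037 bp in replicate 2. It was 1847 and 1850 bp at MTRNR2L10 and 1398 and 1392 bp at MTRNR2L2. At MTRNR2L8 it was 1716 bp in replicate 1, and at MTRNR2L6 it was 1383 bp in replicate 2. The chromosome 1 copy had a shorter spacing, 1192 bp in replicate 1 and 1180 bp in replicate 2. At the 3 genes with a value in both libraries, the spacing differed by at most 33 bp between them. MTRNR2L2 and MTRNR2L6 differed by less than that, while MTRNR2L1, MTRNR2L10 and MTRNR2L8 lay farther apart from each other and from these. The sequences of these stretches were not available for comparison here, so whether the summits lie on matching bases of the mitochondrial genome was not tested.

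**Figure D3:**
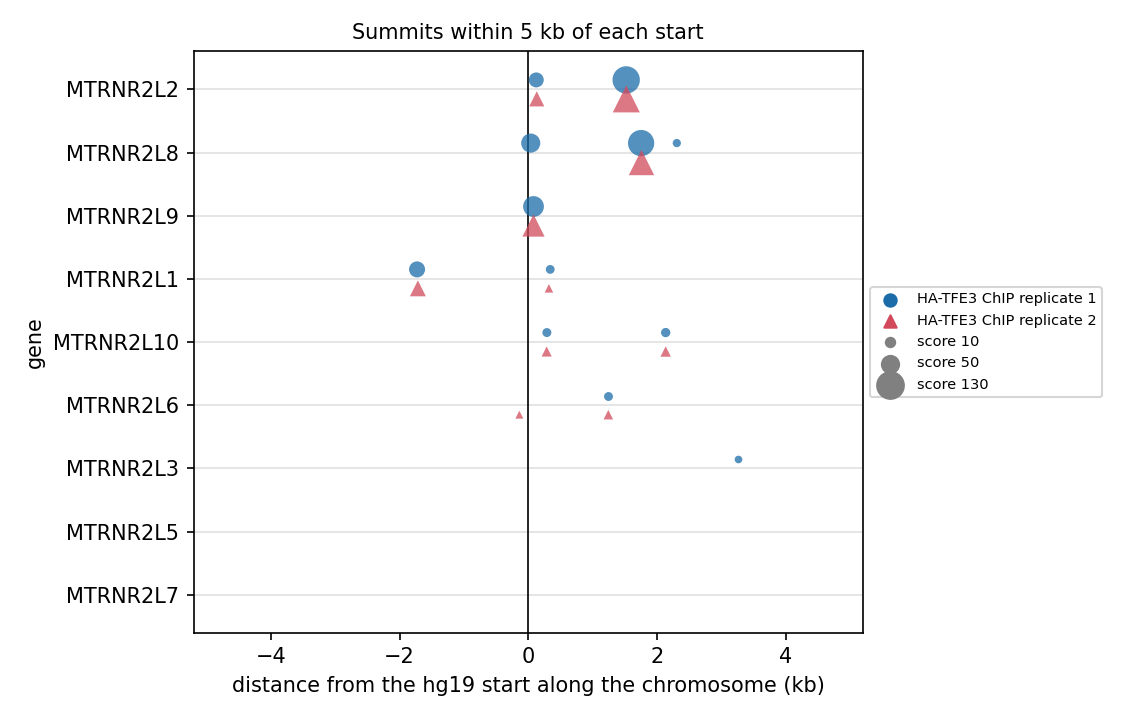
Position of each summit relative to its gene start in kb, positive towards higher chromosome coordinates, with symbol area growing with the score. Circles are replicate 1 and triangles replicate 2. Summits within 350 bp of the start and others at 1 to 2.5 kb are separated by an empty interval from 342 to 1245 bp.

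Most summits of these genes had a counterpart in the other list, as did most summits of the whole lists. Paired as mutual nearest summits at most 100 bp apart, all 6 genes with summits in both lists gave at least 1 pair, and they gave 9 pairs in all. No pair was made by 3 of the 12 summits of replicate 1, those of MTRNR2L8 at 39 and 2310 bp and of MTRNR2L3, nor by 1 of the 10 of replicate 2, that of MTRNR2L6 at 138 bp before the start. Of all summits on chromosomes 1 to 22 and X, 47396 of 62287 in replicate 1 and 47396 of 72647 in replicate 2 made a pair. Having a pair was thus common and not particular to these genes. The 9 pairs lay 0 to 20 bp apart with a median of 4 bp, against a median of 26 bp over all 47396 pairs on these chromosomes. Of all pairs, 41.8% lay within 20 bp, a limit taken from the widest of the 9 pairs. The 1000 pairs that ranked highest in replicate 1 had a median distance of 20 bp. MTRNR2L6 at base 142375376 and MTRNR2L10 at base 55209961 had the same base in both lists, although they scored 8.55 to 14.11. Among the 7237 pairs in which both scores lay between 8 and 15, 1.95% fell on the same base. The closer pair of MTRNR2L10, also in that range, lay 3 bp apart. The same-base pairs and the score range were picked after the values were seen, so nothing is read from that share. The chromosome 1 copy had pairs 7 and 5 bp apart, and the mitochondrial summits, at bases 9908 and 10038, lay 130 bp apart and made no pair.

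The scores of the 9 pairs were compared as the ratio of replicate 2 to replicate 1. The leading pairs of MTRNR2L2, MTRNR2L8, MTRNR2L1 and MTRNR2L9 had 0.978, 0.935, 0.981 and 1.16. The second pairs of MTRNR2L2 and MTRNR2L1 had 1.02 and 0.888. MTRNR2L6 had 1.27, and both pairs of MTRNR2L10 had 1.42 and 1.47. The chromosome 1 copy had 0.937 and 0.948, and the mitochondrial genome 1.03. Over all pairs the ratio had a median of 1.13, with 0.496 and 2.52 as its 5th and 95th percentiles. All 9 pairs of the humanin-like genes lay inside those percentiles. The summit of MTRNR2L8 at 39 bp, with 63.7 in replicate 1 alone, has no ratio.

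MTRNR2L1, MTRNR2L6 and MTRNR2L9, 3 of the 9 genes, had no other summit between 5 and 50 kb from the start in either list. Of all summits, 11.0% in replicate 1 and 9.49% in replicate 2 had no other summit at that distance, and the median number was 4 in each. These values are counted around each summit within 1 list. The genes were counted around their starts and in both lists, so the measures differ. From MTRNR2L1 the next summit beyond 5 kb was 607 kb away in both lists. From MTRNR2L9 it was 576 kb away in replicate 1 and 235 kb away in replicate 2, and from MTRNR2L6 it was 100.0 kb away in both. Over all summits the median distance to the next one beyond 5 kb was 13.2 kb in replicate 1 and 12.3 kb in replicate 2. MTRNR2L9, in a centromeric band, had a single summit in each list, whereas MTRNR2L1 and, in replicate 2, MTRNR2L6 had a second summit of their own within the 5 kb. Counted from 1 kb in place of 5 kb, MTRNR2L9 was the 1 gene with no other summit up to 50 kb.

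The other genes had neighbours. MTRNR2L8 had 2 in replicate 1 and 3 in replicate 2, all at least 16.7 kb from the start, and MTRNR2L2 had 1 and 3. MTRNR2L10 had 1 in each list. MTRNR2L3, which overlaps the nuclear pore gene RAE1 in RefSeq, had 5 in each list, and MTRNR2L5, which overlaps the protocadherin gene PCDH15, had 4 in each. MTRNR2L7 had 0 in replicate 1 and 1 in replicate 2. MTRNR2L3, the only gene with more neighbours than the median of 4, was thus a gene with no summit of its own in replicate 2.

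**Figure D4:**
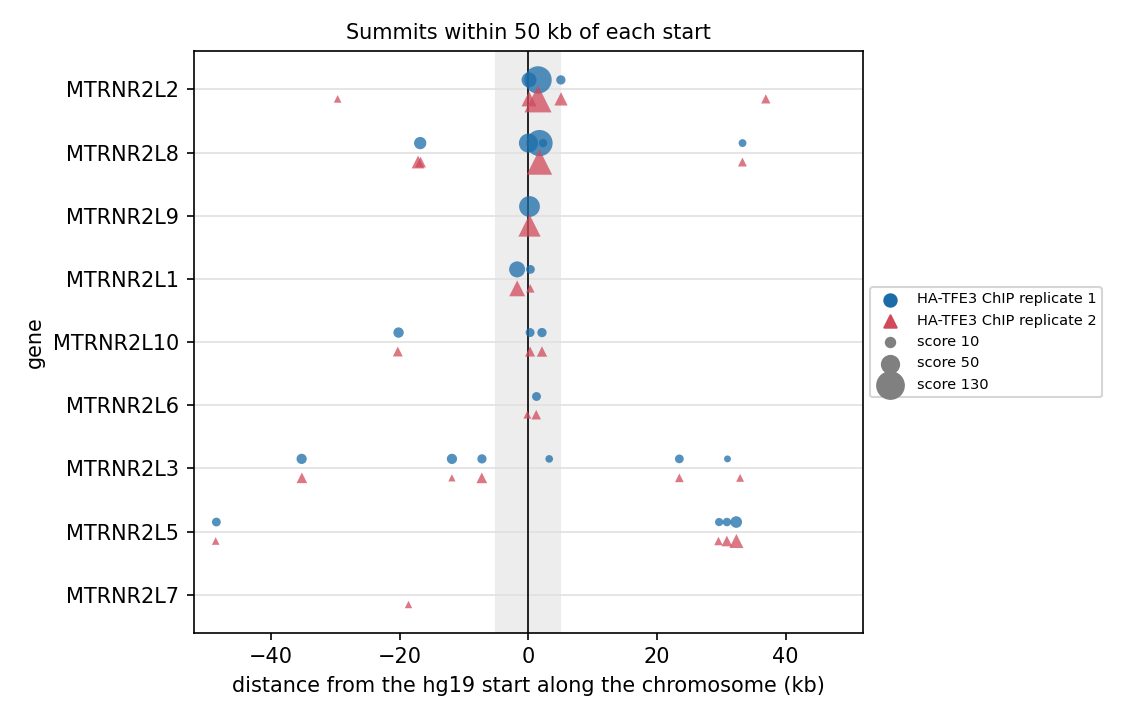
Summits within 50 kb of each gene start, with distance in kb and symbol area growing with the score; the grey band marks 5 kb on each side. MTRNR2L9, MTRNR2L1 and MTRNR2L6 have no summit outside the band in either list, while MTRNR2L3 has 5 in each.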

How the data were processed

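HA-TFE3 ChIP-seq of HK-2 cells was analysed from 2 deposited summit lists, 1 per ChIP library. Each summit has a score deposited by the authors. Not given in the sources used here are its scale, the aligner, the peak caller, the threshold and the use of the input library. Per the submitters' processing notes, the build is hg19. The lists hold no read counts, so the depth is unknown.

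All 9 genes are named, as the rule set out. The genes, their starts and the lists were chosen with earlier results of these data known. Summits within 5 kb of a start were assigned to it, converted to 1-based positions, and ranked in their own list, ties taking the best rank. A percentile is the share of a list scoring no higher. Summits of both lists were paired as mutual nearest neighbours at most 100 bp apart. Bands came from the hg19 table of circlize 0.4.16, chromosome lengths from GenomeInfoDb 1.38.1, and neighbouring genes from RefSeq on GRCh38.p14, used for names and order alone. No hg19 genome was used and the reference tables held no sequence of these genes, so none is shown. The humanin receptor and partner genes planned beside them had no hg19 starts and were not analysed here. Pairing, windows and ranks were tested on simulated lists. Python 3.11.15, NumPy 2.4.6, pandas 2.3.3 and matplotlib 3.10.9 were used. Alternatives were windows of 1, 2 and 10 kb, pairing limits of 50, 200 and 500 bp, summits above the median, the 10000 highest, and each library alone.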

Additional observations from a re-analysis of the deposited data

How the results depend on the processing

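The number of genes with a summit in both lists, 6, was 4 with a window of 1 kb, 6 with 2 kb and 7 with 10 kb, and 4 among the 10000 highest summits of each list. Paired summits were found at 6 genes with pairing limits of 50, 200 and 500 bp, at 5 above the median score and at 4 among the 10000 highest. The median percentile of leading summits, 98.88, moved by more than the SD between libraries with a window of 1 kb (78.47) or 10 kb (97.80), above the median score (99.96) and among the 10000 highest (99.98). With either library left out it ran from 98.14 to 98.71, the lower value counting MTRNR2L3 as well, since replicate 1 alone lists a summit there. With 1 kb in place of 5 kb as the inner limit, 1 gene, MTRNR2L9, had no other summit up to 50 kb, against 3. The 1 kb window leaves out the leading summits of MTRNR2L2, MTRNR2L8, MTRNR2L1, MTRNR2L6 and MTRNR2L10, which lie beyond it. MTRNR2L6 and MTRNR2L8 then no longer had a summit in both lists. Of 37 alternative values, 31 stayed within a limit of 1.5 times for counts, under which 4 genes against 6 still falls, or of 1 SD between libraries for other values. With only 2 libraries, leaving 1 out cannot move a mean score or distance of the same genes by 1 SD. Those values were bound to stay within the limit, so the count of 31 does not measure stability. No paired analysis was possible because both ChIP libraries form 1 group and no test was run. Unknown depth, an unknown score scale and the unmeasured input background limit all values.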
